A study of Mus musculus with 6 samples.

Results

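Histamine signalling was read here from 4 genes, namely the receptor genes Hrh1, Hrh2 and Hrh3 and Hnmt, which encodes the enzyme that breaks histamine down. They are the 4 rows of 45777 in a deposited table of read counts whose symbols match those names. RNA had been taken from the anterior cingulate cortex, a region of the frontal midline, of BALB/c mice, an inbred strain. The labels define 3 non-stress libraries and 3 libraries from mice given social defeat stress on 5 days, a procedure that exposes a mouse again and again to attack by an aggressor. No allele, drug or age is given for either group. The labels do not tie each library to a separate animal, so the spread between libraries may be technical. The 4 genes were chosen with the stress comparison in view, so their values and calls in it are a description, and no p-value is attached to them.

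Histamine in the brain comes mainly from neurons of the tuberomammillary nucleus of the hypothalamus, whose axons reach the whole cortex, and it promotes wakefulness and arousal. The H1 receptor couples to Gq/11 proteins and raises cell calcium, the H2 receptor couples to Gs and raises cyclic AMP, and the H3 receptor couples to Gi/o. H3 receptors sit largely on nerve endings, where they restrain the release of histamine and of other transmitters. Hnmt, histamine N-methyltransferase, inactivates histamine inside cells by methylation, the main route of its removal in brain. The series title names receptor-driven calcium and cyclic AMP signalling, so these receptors belong to the question the stress comparison addresses.

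Library totals ran from 41623899 to 47212982 counts. Libraries did not separate by group alone: on the first principal component of 19227 tested genes (34.5% of the variance), non-stress 2 and 3 lay at 37.4 and 27.4. Non-stress 1 lay at -11.7 and the stress libraries between -20.4 and -14.9. Values are therefore also given without non-stress 1, and without non-stress 2 and 3.

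In the annotation of GRCm38, Hrh1 lies on chromosome 6 (114397936 to 114483296, plus strand) and Hrh2 on chromosome 13 (54192129 to 54236180, plus strand). Hrh3 (180099465 to 180104488) and Hnmt (24002910 to 24049394) both lie on the minus strand of chromosome 2. The longest transcripts have 3 exons in Hrh1, Hrh2 and Hrh3 and 7 in Hnmt. Antisense genes overlap exons of Hrh2 (Gm16578) and of Hrh3 (Gm17180), and whether the counting used strand was not stated in the sources used here. Reads of the overlapping partners therefore cannot be told apart. Counts of Gm16578 were 2, 0 and 0 without stress, and 0, 3 and 0 with it. Gm17180 was not analysed here. The members differ in base composition. The longest Hrh3 transcript has 62.2% G and C, above 98.3% of the genes tested that have a value, and Hnmt has 37.6%, above 1.72% of them. Hrh1 (51.4%) and Hrh2 (49.5%) lie close to the median of 49.7%.

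The upstream sequences show the same contrast between Hrh3 and Hnmt and are given for that reason. They are the 250 bases before the RefSeq start site nearest to the outermost annotated start, 5' to 3' on the gene's strand, from RefSeq's GRCm38.p6 table. Capitals mark matches, on either strand, to 6 motifs. GGGCGG is the core of the GC box. The letters CCAAT make the box of that name, and TATAAA is a form of the TATA element. The cyclic AMP response element was searched as TGACGTCA, the binding site of AP-1 factors as TGANTCA, and the palindromic E-box of clock factors as CACGTG. The windows are chr6:114397686-114397935 for Hrh1, chr13:54191879-54192128 for Hrh2, chr2:180104408-180104657 for Hrh3 and chr2:24049380-24049629 for Hnmt.
Hrh1: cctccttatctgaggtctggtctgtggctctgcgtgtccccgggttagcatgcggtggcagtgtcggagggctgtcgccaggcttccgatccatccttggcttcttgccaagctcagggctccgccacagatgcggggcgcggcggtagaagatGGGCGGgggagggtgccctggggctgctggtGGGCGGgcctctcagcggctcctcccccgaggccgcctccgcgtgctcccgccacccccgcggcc
Hrh2: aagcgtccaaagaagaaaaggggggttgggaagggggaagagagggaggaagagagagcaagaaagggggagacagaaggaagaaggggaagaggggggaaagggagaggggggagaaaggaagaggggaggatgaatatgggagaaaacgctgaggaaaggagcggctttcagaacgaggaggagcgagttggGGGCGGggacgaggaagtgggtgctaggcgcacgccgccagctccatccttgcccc
Hrh3: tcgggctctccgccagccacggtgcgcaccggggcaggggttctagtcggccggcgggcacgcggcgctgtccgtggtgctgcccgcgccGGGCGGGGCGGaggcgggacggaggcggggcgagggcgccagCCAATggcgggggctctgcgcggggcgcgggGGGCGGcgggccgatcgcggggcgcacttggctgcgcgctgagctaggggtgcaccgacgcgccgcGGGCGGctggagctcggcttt
Hnmt: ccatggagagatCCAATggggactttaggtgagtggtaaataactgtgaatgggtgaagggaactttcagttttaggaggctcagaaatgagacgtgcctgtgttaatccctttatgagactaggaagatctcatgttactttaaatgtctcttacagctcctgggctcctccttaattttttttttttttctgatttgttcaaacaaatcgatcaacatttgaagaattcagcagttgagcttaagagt
Hrh3 has 80.8% G and C and 42 CpG pairs in this window, Hrh1 71.2% and 21, Hrh2 59.6% and 10, and Hnmt 38.8% and 2. The median over 32851 windows of this length was 52.4%. Unlike its transcript, the Hrh1 window lay far from the median, above 92.2% of windows, and the Hrh2 window lay above 71.1%. GGGCGG occurs 4 times in the Hrh3 window, where a pair of the matches overlap, 2 times in Hrh1 and 1 time in Hrh2, and it is found in 32.7% of windows. CCAAT occurs 1 time each in Hrh3 and Hnmt, and in 33.8% of windows. The letters of TATAAA (12.4% of windows), TGACGTCA (1.55%), TGANTCA (6.75%) and CACGTG (6.02%) do not occur in these 4 windows. A match describes the letters and does not show a bound site.

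Levels differed widely between the members. Per length, as CPM (counts scaled by library size, the unit used throughout) per kilobase of the longest annotated transcript, Hrh3 averaged 51.6 ± 6.97 without and 37.9 ± 0.897 with stress (SD, n = 3). Hnmt stood at 38.8 ± 1.07 and 39.7 ± 1.37 on this scale, Hrh1 at 4.08 ± 0.558 and 4.78 ± 0.0354, and Hrh2 at 1.45 ± 0.128 and 1.18 ± 0.0756. The H3 receptor messenger was thus the most abundant of the receptors in each library, at 86.3% to 92.1% of the summed receptor level per length. Hrh1 made up 5.92% to 11.1% of that sum and Hrh2 2.01% to 2.88%. Hrh1 lay above Hrh2 in each of the 6 libraries with no overlap. Hrh3 and Hnmt were neighbours in the order: their ratio was 1.15, 1.55 and 1.30 in non-stress 1, 2 and 3, against 0.941, 0.921 and 1.01 with stress. The order Hrh3, Hnmt, Hrh1, Hrh2 held in 4 of 6 libraries, and in 3 with merged exon length in place of the longest transcript. Hnmt lay above Hrh3 in stress 1 and stress 2 with either length. In stress 3 its place depended on the length used, with a ratio of Hrh3 to Hnmt of 1.01 by longest transcript and 0.924 by merged exons. The fourth receptor gene, Hrh4, known mainly from blood cells, had 0 counts in each of the 6 libraries, which at this depth allows up to 0.0635 to 0.0721 CPM per library (3 counts). These floors cover counting error.

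**Figure D1:**
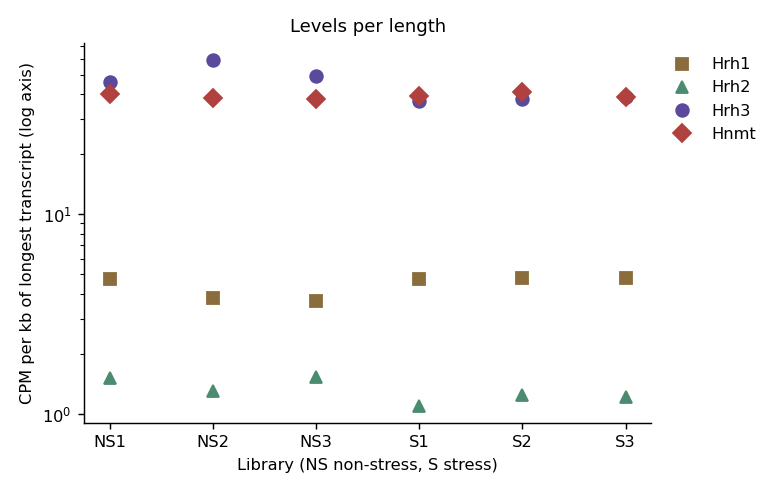
Level of each gene per kilobase of its longest transcript (log axis, CPM per kb) in each library; NS is non-stress and S is stress. Hrh3 and Hnmt lie far above Hrh1, Hrh1 lies above Hrh2 in each library, and Hrh3 lies above Hnmt in the 3 non-stress libraries.

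Stress and non-stress libraries were set side by side for each member. Hrh3 and Hrh2 had lower counts in the stress libraries, Hrh1 had higher ones, and the groups overlapped for Hnmt. The 3 receptor genes did not overlap between groups, where 17.9% of the genes tested did not (9.43% with stress lower, 8.43% with stress higher). The members were chosen on this contrast, so nothing is read from that count or from the calls of members given below. By edgeR's quasi-likelihood test, 0 of the 4 passed a Benjamini-Hochberg adjusted p under 0.05, against a background of 0.0052% of genes. At an unadjusted p under 0.05 it was 3 of 4 (background 12.1%). DESeq2 called 1, Hrh3 (background 0.661%), and limma-voom 0 (background 0.0104%). The 0.661% is a share of 19224 genes, and DESeq2 gave 7083 genes no adjusted p. Among the genes that it could call, its share is therefore higher. Without non-stress 1, edgeR called Hrh1 and Hrh3, with log2 fold changes of 0.35 and -0.52 (background 3.85%). The tissue is a bulk sample, so fewer cells that express a gene and less RNA per cell cannot be told apart.

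**Figure D2:**
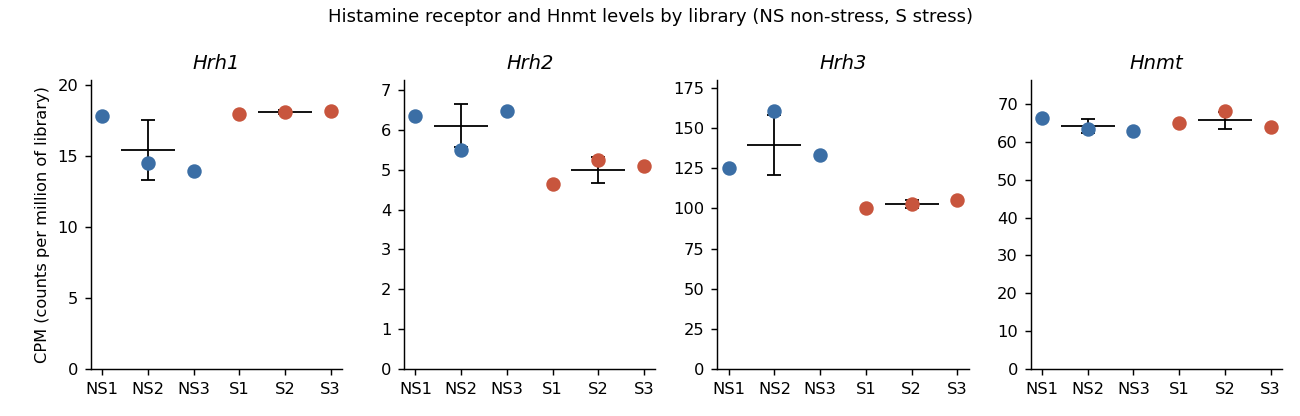
CPM of the 4 genes in each library (points; blue non-stress, red stress), with the mean and SD of each group of 3 as black lines; each panel has its own axis from 0. Hrh3 and Hrh2 are lower in the 3 stress libraries, non-stress 1 lies beside the stress libraries for Hrh1, and the groups overlap for Hnmt.

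Hrh3, the receptor that restrains transmitter release, reached 125, 161 and 133 CPM in non-stress 1, 2 and 3, against 100.2, 103 and 105 CPM in stress 1, 2 and 3. The stress libraries lay close together and below each non-stress library, and non-stress 2 stood highest. The group means were 139.7 ± 18.8 and 103 ± 2.43 CPM (SD, n = 3), 1.36-fold lower in stress. The log2 fold change was -0.44 (SE 0.08). Of the genes tested, 3.16% had a log2 fold change as low or lower. The value was -0.32 without non-stress 2, -0.52 without non-stress 1 and -0.28 against non-stress 1 alone. That last fit assumes that the lone non-stress library varies like the stress libraries. It called Hrh3, where 0.333% of genes were called.

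Hrh2, the receptor that stimulates cyclic AMP formation, was the scarcest member, with 274, 259 and 272 counts without stress and 193, 228 and 229 with it. Scaled by library size, the values were 6.36, 5.49 and 6.48 CPM for non-stress 1, 2 and 3, against 4.64, 5.25 and 5.10 CPM for stress 1, 2 and 3. The groups did not overlap, but non-stress 2 and stress 2 lay close to each other. The means were 6.11 ± 0.542 and 5.00 ± 0.319 CPM, 1.22-fold lower in stress. The log2 fold change was -0.29 (SE 0.11). Leaving out 1 library at a time gave -0.35 to -0.24, and non-stress 1 alone gave -0.34 (SE 0.15). That last value rests on 1 non-stress library. The part of non-stress 2 and 3, the libraries that stood apart, was not tested.

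Hrh1, the receptor that raises calcium, reached 17.8, 14.5 and 14.0 CPM in non-stress 1, 2 and 3, against 17.9, 18.1 and 18.2 CPM with stress. Non-stress 1 was thus level with the stress libraries, and the difference between the groups came from non-stress 2 and 3. The means were 15.4 ± 2.11 and 18.1 ± 0.134 CPM, 1.17-fold higher in stress (log2 fold change 0.23, SE 0.10). It was 0.35 without non-stress 1 and 0.025 (SE 0.09) with non-stress 1 as the single non-stress library. The summed markers of upper cortical layers also set non-stress 1 apart from non-stress 2 and 3. The sums were 569, 363 and 368 CPM in non-stress 1, 2 and 3, against 451 to 507 CPM with stress. Unlike Hrh1, this sum was higher in non-stress 1 than in the stress libraries. Lamp5, the most abundant marker, reached 308, 230 and 230 CPM, against 252, 242 and 280 CPM with stress. Rorb did not share the division, with 20.3, 17.2 and 21.8 CPM in non-stress 1, 2 and 3. All 6 markers of that list were tested and 0 passed edgeR's threshold (0 also at an unadjusted p under 0.05 and by DESeq2 or limma-voom). Without non-stress 1 edgeR called 3 of them, Cux2, Rasgrf2 and Calb1, each higher in stress (background 3.85%). Calb1, which encodes the calcium buffer calbindin, had the widest range, with 187, 81.8 and 81.5 CPM in the same libraries, against 145 to 159 CPM with stress. The part of layer composition in the Hrh1 values was not tested.

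Hnmt, the histamine-inactivating enzyme, reached 66.2, 63.4 and 63.0 CPM in non-stress 1, 2 and 3, against 65.1, 68.3 and 63.9 CPM with stress. The groups overlapped and the whole range was narrow. The means were 64.2 ± 1.77 and 65.8 ± 2.27 CPM (SD, n = 3), and the log2 fold change was 0.035 (SE 0.05). This value turned to -0.22 (SE 0.08) when each library was corrected for a smooth trend on base composition (G and C content) and length of transcripts.

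That trend bore on the members to unequal degrees. At the composition and length of Hnmt it was 0.10, -0.30 and -0.18 on the log2 scale in non-stress 1, 2 and 3, against 0.15, 0.12 and 0.11 with stress. Genes like Hnmt in composition and length were therefore low in non-stress 2 and 3, while Hnmt itself hardly was. At the composition of Hrh3 the trend was 0.017, 0.17 and -0.011 without stress, against -0.096, -0.057 and -0.028 with it. Once it was removed, the log2 fold change of Hrh3 was -0.32 (SE 0.05) and its groups still did not overlap. Hrh1 and Hrh2 moved less, to 0.27 and -0.26. With the trend taken out edgeR called 0 of the 4, against a background of 0.0156% of genes called. At an unadjusted p under 0.05 it was 4 of 4, where 2219 of the 19227 genes tested had such a p. The members were chosen on this contrast, so nothing is read from these counts.

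**Figure D3:**
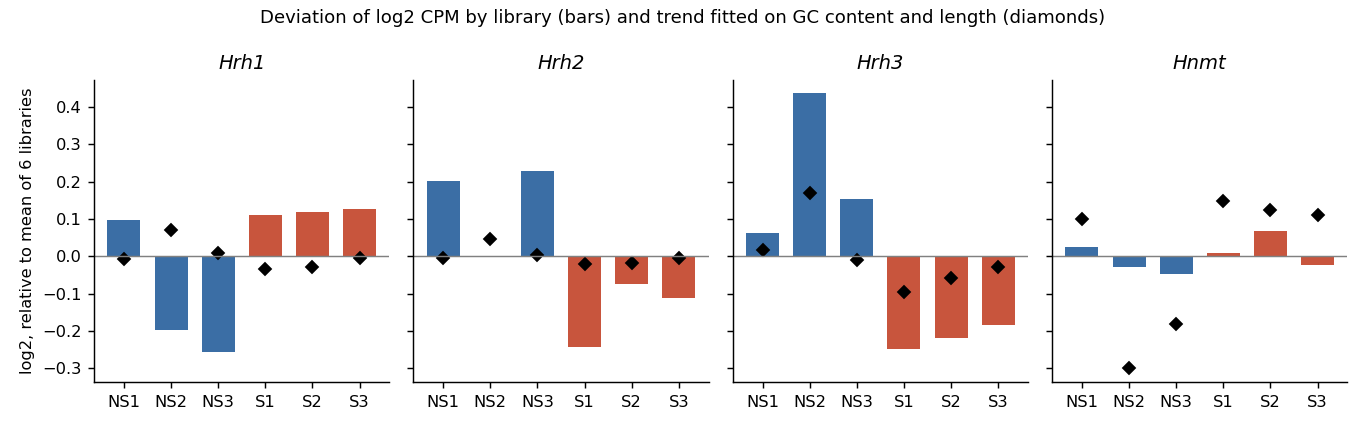
Bars give each library's log2 CPM relative to the mean of 6 libraries (blue non-stress, red stress), and diamonds give the trend that G and C content and transcript length predict for the gene in that library. For Hnmt the diamonds are low in non-stress 2 and 3 (-0.30 and -0.18) where the bars stay near 0, and for Hrh3 the bars reach further than the diamonds in non-stress 2 and in the stress libraries.

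**Figure D4:**
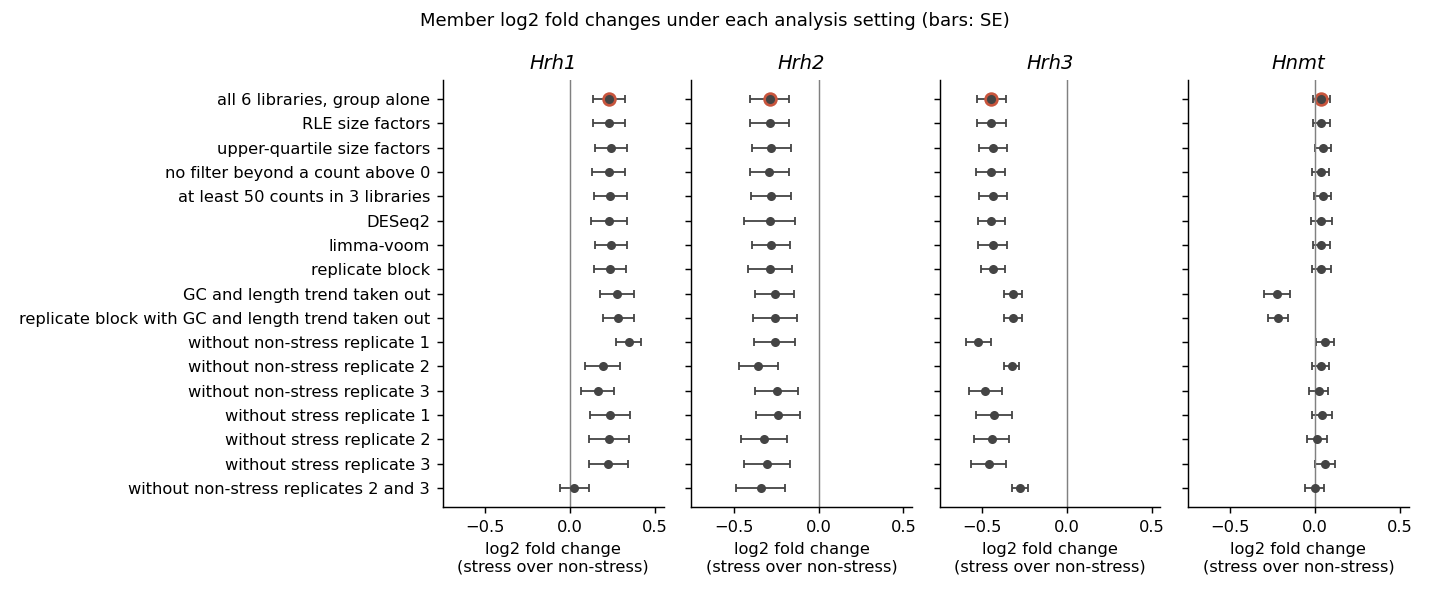
Log2 fold change of each gene, stress over non-stress, with its SE, under each analysis setting; the red point is the value with all libraries and group alone. Hrh2 and Hrh3 lie below 0 throughout, Hrh1 comes near 0 without non-stress 2 and 3, and Hnmt turns below 0 when the composition trend is taken out.

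The gene patterns most like each member over the 6 libraries were ranked by Pearson correlation of log2 CPM among 11101 genes with a mean of at least 5 CPM. Points share library depth and composition, and so few points give many high values. For Hrh3 the leading genes were Rbfox3 (r = 0.999), which encodes the neuronal nuclear antigen NeuN, Brpf1 (0.998) and Ccdc92 (0.997), and 633 genes exceeded 0.9. Rbfox3 shared the order of libraries over a narrower range, from 330 to 349 CPM without stress and from 311 to 315 CPM with it. For Hrh1 they were Lcorl (0.999), Lrrcc1 (0.999) and Smc6 (0.997), with 449 genes above 0.9. Lcorl reached 25.4, 13.6 and 12.3 CPM without stress and 25.3 to 26.9 CPM with it, again with non-stress 1 beside the stress libraries. Lurap1l (0.994), Zfp646 (0.989) and Cnot1 (0.986) led for Hrh2, and Suv39h2 (0.991), Zfp869 (0.977) and Zfp113 (0.976) for Hnmt.

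Of 48 other genes on 4 lists around the members, all were in the table, 44 were tested, and 0 passed edgeR's threshold (7 at an unadjusted p under 0.05). DESeq2 called 2 of them and limma-voom 0, and edgeR called 3 without non-stress 1. Over all genes tested, the shares were 12.1% at an unadjusted edgeR p under 0.05, 0.661% by DESeq2, 0.0104% by limma-voom and 3.85% without non-stress 1. The DESeq2 share counts genes that it gave no adjusted p, and is higher without them. Negative fold changes were the more frequent, with 32 genes below and 12 above 0, and the medians of the lists lay between -0.08 and -0.03, against -0.00053 over the genes tested. These lists were drawn up with earlier results of these data known.

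Synthesis, storage, uptake and oxidation of histamine formed the first list (8 of 12 tested, 5 below 0). Hdc, which encodes the enzyme that makes histamine from histidine, showed 38, 30 and 27 counts without stress and 22, 29 and 32 with it, under 1 CPM in each library. The groups overlapped. Slc22a3, a transporter gene for organic cations that carries histamine, showed 19, 9 and 3 counts without stress and 30, 43 and 27 with it. Its mean CPM was 3.29-fold higher (log2 fold change 1.71, SE 0.49, adjusted p = 0.344 by edgeR), and it passed without non-stress 1 (2.50, adjusted p = 0.0213 by edgeR). Its relative Slc22a2 was too low to be tested, with 14, 4 and 9 counts against 3, 0 and 0. Aldh2, an aldehyde dehydrogenase gene, averaged 97.4 ± 6.36 CPM without and 86.3 ± 3.02 CPM with stress (log2 fold change -0.17, edgeR adjusted p = 0.351). The Aldh2 value was -0.098 with the composition trend taken out and -0.11 without non-stress 2. For Slc18a2, the vesicular monoamine transporter gene, the log2 fold change was 0.22 (edgeR adjusted p = 0.571). The monoamine oxidases Maoa and Maob, which act on methylated histamine, averaged 38.9 ± 0.984 and 30.7 ± 0.469 CPM without stress, against 40.1 ± 0.915 and 30.4 ± 1.45 CPM with it. Aoc1, the diamine oxidase gene that degrades histamine in gut, had 2 counts in non-stress 2 and 0 in the other libraries.

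Downstream of the H1 receptor, 9 of 11 genes of the Gq/11 list lay below 0. Itpr1, the calcium release channel of the endoplasmic reticulum, averaged 197 ± 7.52 CPM without and 176 ± 5.69 CPM with stress (log2 fold change -0.16, SE 0.04, edgeR adjusted p = 0.344). Itpr2 averaged 12.7 ± 0.266 and 11.1 ± 0.452 CPM (-0.20, adjusted p = 0.385) and the protein kinase C gene Prkca averaged 34.5 ± 1.85 and 31.1 ± 3.04 CPM (-0.15, adjusted p = 0.473). Without stress 1 the Prkca value was -0.072 (edgeR adjusted p = 0.824). Hrh1 itself had the opposite sign.

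Among 13 genes of the Gs list downstream of the H2 receptor, 8 lay below 0. The adenylyl cyclase genes Adcy1 and Adcy9, whose enzymes make cyclic AMP, were the genes that DESeq2 called (adjusted p = 0.0308 and 0.0492), while edgeR did not (both 0.344). Adcy1 averaged 252 ± 6.59 CPM without and 223 ± 5.02 CPM with stress (log2 fold change -0.18, SE 0.04). Adcy9 averaged 44.5 ± 2.67 and 37.5 ± 0.219 CPM (-0.25, SE 0.06). Without non-stress 1 edgeR called Adcy1 (-0.19, adjusted p = 0.0359) and Adcy8 (0.32, adjusted p = 0.0450). For Adcy5 the log2 fold change was -0.19 (edgeR adjusted p = 0.414). With the composition trend taken out, Adcy9 came to -0.16 and Adcy5 to -0.095.

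In the Gi/o list downstream of the H3 receptor, 10 of 12 genes lay below 0, within a narrow range from -0.08 to 0.07, and 0 had an unadjusted p under 0.05. Gnao1, the Go alpha subunit gene, averaged 286 ± 7.42 and 271 ± 0.316 CPM (-0.08, adjusted p = 0.444 by edgeR). Kcnj9, a potassium channel subunit opened by these G proteins, and the gamma subunit gene Gng2 had log2 fold changes of -0.06 and 0.07 (adjusted p = 0.601 and 0.639 by edgeR).

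**Figure D5:**
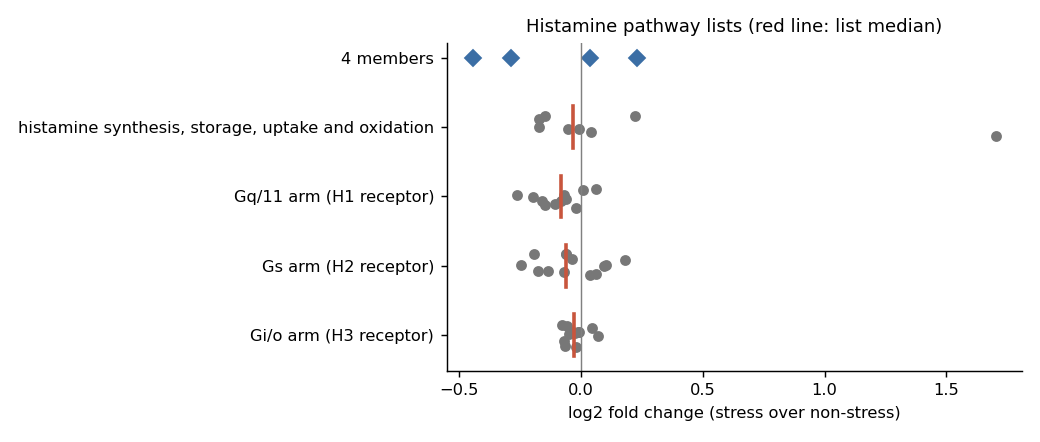
Log2 fold changes, stress over non-stress, of the tested genes of 4 lists (grey points, spread vertically at random) with each list's median as a red line, and of the 4 members (blue). The list medians lie between -0.08 and -0.03, and the point at 1.71 is Slc22a3.

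Markers of cells that make or could carry these transcripts were read beside the members. Of 8 mast cell markers, Cma1, Fcer1a and Ms4a2 had 0 counts in each library and Cpa3 had 0 in non-stress and 1, 4 and 5 in stress. Counts of Tpsb2 were 8, 4 and 0 in non-stress and 0 in each stress library. For Mcpt4 they were 0, 0 and 2 against 0 in each, and for Tpsab1 0, 9 and 0 against 2, 0 and 3. The summed mast cell list did not overlap (11.8 to 13.3 CPM in non-stress, 14.9 to 18.1 CPM in stress), but Kit, which neurons also express, made up 12.6 ± 0.689 and 16.1 ± 1.68 CPM of it. Striatal markers, a check because Hrh3 and Hrh2 are abundant in striatum, overlapped in sum (314 to 339 CPM in non-stress, 319 to 327 CPM in stress), with 5 of 9 above and 4 below 0. Ppp1r1b (151 ± 18.4 and 140 ± 4.01 CPM), Penk and Tac1 made up most of that sum, so it says little of the scarcer markers. Drd2, a defining striatal gene, was lower in stress without overlap, at 1.08 ± 0.105 and 0.602 ± 0.134 CPM (log2 fold change -0.85). Each other marker of the list overlapped. For these 9 markers edgeR made 0 calls (1 at an unadjusted p under 0.05), and 2 without non-stress 1. Sums of the excitatory neuron, inhibitory neuron, astrocyte, microglia, oligodendrocyte, vascular, hypothalamic and deep-layer lists also overlapped. The deep-layer markers summed to 345 to 398 CPM in non-stress and 392 to 411 CPM in stress, with 7 of 9 above 0 and a median log2 fold change of 0.25. edgeR called 0 of the 9 (5 at an unadjusted p under 0.05), and DESeq2 called 2. Ccn2, Cplx3 and Rxfp1, genes of deep-layer neurons, were higher in stress without overlap (0.40, 0.28 and 0.37 on the log2 scale). Without non-stress 1 edgeR called Ccn2 (0.40), Rxfp1 (0.37) and Bcl11b (-0.19). Of 7 inhibitory neuron markers 3 lay above and 4 below 0. Among them 4 had an unadjusted p under 0.05 and 1 was called by DESeq2. Of 6 excitatory ones, 2 above and 4 below 0, it was 2 and 1, with 2 called by edgeR without non-stress 1. Over all genes tested, the shares were 12.1% (unadjusted edgeR p under 0.05), 0.661% (DESeq2) and 3.85% (edgeR without non-stress 1). As above, the DESeq2 share counts genes that it gave no adjusted p. In the cortical tissue as labelled, excitatory neuron markers summed to 1825 to 1978 CPM. The meningeal and choroid plexus list was lower in stress without overlap (276 to 287 and 259 to 267 CPM). Ptgds, a prostaglandin synthase gene, made up most of that sum (267 ± 10.9 and 247 ± 0.692 CPM). The other 7 genes summed to 12.8 to 21.5 and 13.2 to 19.7 CPM, with overlap. Of these, the fibroblast genes Dcn and Lum and the transporter gene Slc6a13 had values above 0 (0.48, 0.27 and 0.42 on the log2 scale). Col1a1, also a fibroblast gene, and Ttr, Folr1 and Kl lay below 0 (-0.48, -0.09, -0.22 and -0.12). The pituitary list was higher in sum in stress (1.26 to 3.09 and 3.79 to 14.0 CPM), with 2 of 6 genes tested and 0 called by edgeR. Gh made up most of the sum in stress 1 and 2 (8.10 and 9.21 CPM) but stood at 0.668 CPM in stress 3. Pomc and Prl were also higher in stress without overlap, Cga and Tshb overlapped, and Lhb went the other way. Counts of Lhb were 5, 4 and 5 in non-stress and 0 in each stress library. The part of these markers in the member values was not tested.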

How the data were processed

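RNA sequencing of 6 libraries was used. Per the labels' protocols, a SMARTer kit for low RNA input and TruSeq construction gave the libraries. Per the submitters' processing notes, Trimmomatic 0.38, HISAT2 and StringTie were used with GRCm38 (mm10). The counting step, annotation release, strand use and handling of reads that map to several genes were not stated in the sources used here. The authors deposited whole-number counts per gene, not normalised, with 1 column per library, and these were used unchanged.

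edgeR 4.0.16 in R 4.3.3 kept 19227 genes (filterByExpr), scaled libraries by TMM and compared stress with non-stress by the quasi-likelihood test, two-sided, with group as the single term and Benjamini-Hochberg adjustment over the genes tested (threshold 0.05). SE is the log2 fold change divided by the square root of the F statistic. CPM use library totals. The prior count for log2 CPM was 2. DESeq2 1.42.0, limma-voom (limma 3.58.1), other scaling and filters, a replicate block, each library left out, and removal of composition trends (mgcv 1.9.3; values for 90.0% of genes tested, from GENCODE) were alternatives. The fit against non-stress 1 alone and the meningeal sum without Ptgds were added after seeing the data. Steps were tested on simulated data.

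Members and lists were chosen with earlier results of these data known. Named genes were the members, the 3 list genes of smallest p-value per list with any that passed, and the 3 most correlated genes per member. Other genes named in the text (Hdc, Hrh4, Slc22a2, Maoa, Maob, Aoc1 and the markers) were named for their role or after their values were seen.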

Additional observations from a re-analysis of the deposited data

How the results depend on the processing

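The signs of Hrh1, Hrh2 and Hrh3 held under each of 9 other settings and each library left out, with ranges of 0.23 to 0.28, -0.29 to -0.26 and -0.45 to -0.32 over the settings. With 1 library left out the ranges were 0.16 to 0.35 for Hrh1, -0.35 to -0.24 for Hrh2, -0.52 to -0.32 for Hrh3 and 0.0099 to 0.057 for Hnmt. Hnmt turned to -0.22 with the composition trend taken out, alone or with the replicate block, and to -0.0041 against non-stress 1 alone. In that last fit Hrh1 fell to 0.025, Hrh3 came to -0.28 and Hrh2 to -0.34.

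Over all genes edgeR called 1. DESeq2 called 127, limma-voom 2, the replicate block 2, the trend removal 3, and the block with the trend 4. Leaving out 1 library gave 1 to 756, the highest without non-stress 1, and leaving out non-stress 2 and 3 gave 64. The order by level per length held in 4 libraries, in 3 with merged exon length, in 6 with no length, and in 3 to 4 with 1 library left out.

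The labels do not say that replicate numbers pair the libraries. Same-numbered deviations correlated at 0.016, -0.030 and 0.021, and non-stress 1 correlated best with stress 2 (0.036). With 3 libraries per group these values cannot decide whether a weak pairing was present. With the replicate block the members had log2 fold changes of 0.24 (Hrh1), -0.29 (Hrh2), -0.44 (Hrh3) and 0.035 (Hnmt), and 0 were called.

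Gnao1 turned to 0.0047 with the trend taken out and to 0.0050 with the block added, Kcnj9 to 0.035 and 0.036, and Slc18a2 to -0.064 against non-stress 1 alone. With 1 library left out, Kcnj9 came to -0.024 (non-stress 2), Gng2 to 0.035 (non-stress 2) or 0.13 (non-stress 3), and Slc18a2 to 0.39 (non-stress 1), 0.12 (non-stress 3) or 0.14 (stress 1), and none of these passed. The cause was not tested. Depth limits Hdc, Slc22a2, Slc22a3 and Aoc1, which had at most 43 counts in a library.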
